A study of Mus musculus with 4 samples.

Results

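The molecular clock of the newborn mouse spleen is described here through 10 genes: Arntl, Clock, Per1, Per2, Per3, Cry1, Cry2, Nr1d1, Nr1d2 and Dbp. They were chosen by name as the core transcription factors, repressors and best known output gene of the mammalian clock, not by their measured values, and make up 10 of the 20284 genes that could be matched to probes on the array. The study asked whether exposure of pregnant mice to carbon black nanoparticles (CB-NP, a manufactured soot of very fine carbon particles) alters gene expression in the spleens of their offspring. Dams of the outbred ICR strain received 95 microg/kg CB-NP into the nose on each of gestational days 5 and 9, or 1 mL/kg distilled water on the same days. Spleens were taken from their pups at 5 days of age, and RNA was pooled into 4 groups: males from CB-NP dams, males from control dams, females from CB-NP dams and females from control dams. Each group is 1 pool on 1 one-colour Agilent array, so a value has no replicate within its group and no test is possible within 1 sex. The number of pups and litters in a pool is not given in the sources used here. The animals lived in a 12-h light and dark cycle, and the hour at which the spleens were taken is not given in the sources used here either.

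The clock runs on a loop of transcription. BMAL1, the product of Arntl, pairs with CLOCK and switches on genes that carry E-boxes, among them the Per and Cry genes, whose proteins return to the nucleus and repress the pair. In a linked loop, the nuclear receptors REV-ERB alpha (Nr1d1) and REV-ERB beta (Nr1d2) repress Arntl through ROR elements, at which the ROR receptors activate it. DBP, itself switched on through E-boxes, carries the rhythm to further genes through D-boxes, where NFIL3 opposes it. The levels of most of these messengers vary strongly with the hour of the day in adult tissues, so that genes of the E-box and D-box arm are high when Arntl is low. Clocks of this kind run in the immune cells of the adult spleen.

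The promoters of the members were searched for short sequences that these factors can bind, and binding itself was not measured. RefSeq's promoter table for GRCm38.p6, which spans 250 bases before to 50 bases after each start site, held 13 promoters for 9 of the 10 members, with more than 1 start for Arntl, Clock and Per1, and none for Per2. Each was searched on both strands for the E-box CACGTG, the D-boxes TTATGTAA and TTACGTAA, the ROR element core AGGTCA and the cyclic AMP response element TGACGTCA, none of which overlapped another in these promoters. Among all 32851 promoters of the table, 7.15% held CACGTG, 0.938% held TTATGTAA, 0.119% held TTACGTAA, 16.3% held AGGTCA and 1.79% held TGACGTCA. Of the 13 member promoters 6 held a match, each from a different gene. The sequences below run 5′ to 3′ on the strand of the gene, with matches in capitals. Arntl and Clock are shown because their mean CB-NP minus control differences were the largest above 0 among the members measured in every pool, and Nr1d2 and Cry2 because theirs were the largest below 0 among those with a promoter in the table. Per1 and Per3 were added after their values were seen, Per1 because its values in the sexes lay apart and Per3 because its promoter holds a pair of D-boxes.
Arntl, chr7:113207261-113207560, plus strand: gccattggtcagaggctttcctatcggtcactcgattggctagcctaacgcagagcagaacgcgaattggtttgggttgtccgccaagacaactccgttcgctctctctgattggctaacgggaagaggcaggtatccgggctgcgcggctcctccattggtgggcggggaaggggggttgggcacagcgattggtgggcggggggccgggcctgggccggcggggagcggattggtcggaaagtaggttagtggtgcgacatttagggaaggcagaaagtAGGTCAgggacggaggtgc
Clock, chr5:76303453-76303752, minus strand: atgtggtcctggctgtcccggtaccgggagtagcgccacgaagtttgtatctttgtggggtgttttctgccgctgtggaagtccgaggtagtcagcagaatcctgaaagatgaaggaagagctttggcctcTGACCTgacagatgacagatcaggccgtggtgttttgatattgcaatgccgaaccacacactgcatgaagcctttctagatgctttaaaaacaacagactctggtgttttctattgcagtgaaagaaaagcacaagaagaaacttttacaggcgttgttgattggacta
Nr1d2, chr14:18239057-18239356, minus strand: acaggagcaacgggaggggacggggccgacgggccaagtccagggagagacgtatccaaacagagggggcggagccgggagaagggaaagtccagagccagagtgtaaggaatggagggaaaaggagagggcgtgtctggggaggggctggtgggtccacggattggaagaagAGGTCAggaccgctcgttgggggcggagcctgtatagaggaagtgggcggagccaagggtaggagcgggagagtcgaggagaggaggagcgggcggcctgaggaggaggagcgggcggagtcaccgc
Cry2, chr2:92434020-92434319, minus strand: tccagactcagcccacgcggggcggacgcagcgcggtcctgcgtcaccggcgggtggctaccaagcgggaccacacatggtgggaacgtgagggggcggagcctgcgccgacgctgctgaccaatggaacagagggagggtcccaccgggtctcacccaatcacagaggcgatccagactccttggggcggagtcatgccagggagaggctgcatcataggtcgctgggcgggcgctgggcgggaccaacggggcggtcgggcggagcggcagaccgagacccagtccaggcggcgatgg
Per1, chr11:69098699-69098998, plus strand: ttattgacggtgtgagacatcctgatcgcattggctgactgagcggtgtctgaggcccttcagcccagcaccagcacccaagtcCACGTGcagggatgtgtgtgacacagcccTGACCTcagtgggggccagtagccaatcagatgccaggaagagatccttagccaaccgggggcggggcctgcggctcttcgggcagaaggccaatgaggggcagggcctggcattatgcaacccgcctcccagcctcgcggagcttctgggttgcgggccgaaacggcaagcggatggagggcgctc
Per3, chr4:151044616-151044915, minus strand: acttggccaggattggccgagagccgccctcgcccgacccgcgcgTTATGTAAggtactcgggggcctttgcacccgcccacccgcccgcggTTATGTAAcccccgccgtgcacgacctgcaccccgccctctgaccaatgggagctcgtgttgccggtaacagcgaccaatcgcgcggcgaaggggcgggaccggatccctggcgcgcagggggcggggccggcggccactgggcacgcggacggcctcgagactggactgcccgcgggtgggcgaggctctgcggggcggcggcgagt

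The capitals in Arntl, Clock and Nr1d2 mark the ROR element core, which in Clock lies on the opposite strand and reads TGACCT. For Arntl it begins 31 bases after the start site, for Clock 119 bases before it and for Nr1d2 77 bases before it. Per1 holds an E-box 166 bases before its start site and a ROR element core, again as TGACCT, 137 bases before it. Per3 holds TTATGTAA at 205 and at 158 bases before its start site, and 0.0213% of all promoters in the table hold 2 such D-boxes. The remaining match was an E-box 60 bases before the start site of Cry1. The windows for Cry2, Dbp and Nr1d1 held none of the searched letters, which says nothing of sites outside these 300 bases.

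Levels are given as log2 of the processed signal minus the 75th percentile of all signals of that array, so that 0 is a signal brighter than 75 percent of the spots. A probe counts as measured where the scanning software called it well above background. The arrays were of like quality: between 57.3% and 59.0% of the 59305 spots were well above background, none was saturated, and the spread of repeated spots of the same probe was 4.32% to 4.78%. The array of the female control pool was the brightest, with a 75th percentile of 317 for the female CB-NP pool and 392 for the female control pool. For males the percentile was 340 for the CB-NP pool and 335 for the control pool. All 4 arrays lie on 1 slide, so that position on the slide and group cannot be told apart. Xist and 3 Y-linked genes matched the labelled sex of every pool, and all 6 genes of a list of spleen red pulp and stroma markers were measured on every array.

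Clock gene probes gave signals above background for 9 of the 10 members in all 4 pools, the exception being Cry1. None of these 9 differed by 1.5-fold or more between CB-NP and control pools in either sex. Over all genes the share past 1.5-fold was 4.57% in males and 6.88% in females, so a count of 0 among 9 genes lies near the background and is not a result about the clock genes. In males Arntl, Clock and Dbp lay above their controls, and all 3 Per genes, Cry2 and both REV-ERB genes lay below, where 45.2% of all genes lay above and 54.8% below. Females kept those signs for 7 of the 9 genes and differed for Per1 and Nr1d1, where 43.3% of all genes lay above and 56.7% below. A difference is also set against its 95% scanner interval, which comes from the error that the scanning software attaches to each spot and leaves out the spread between animals. None of the 9 members passed that interval in either sex, while over all genes 9.34% did in males and 15.4% in females.

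**Figure D1:**
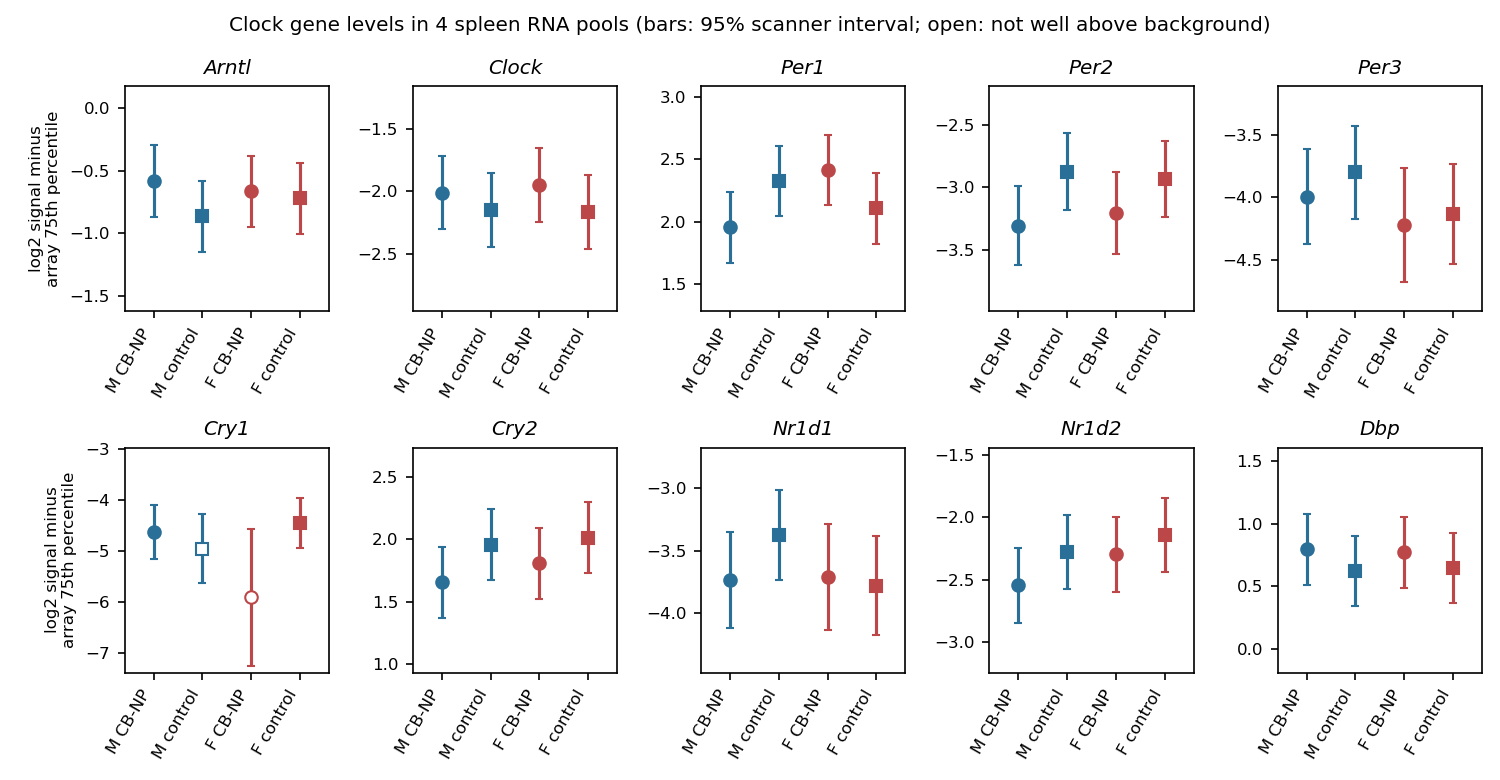
Level of each clock gene in each pool, with 1 panel per gene. The vertical axis is log2 signal minus the 75th percentile of the array, with its own range in each panel. Circles are CB-NP pools and squares control pools, males in blue and females in red, while bars are the 95% scanner interval, and open symbols are signals not well above background. Per2 lay lower in both CB-NP pools than in both control pools, as did 32.7% of all genes. The Cry1 panel holds 2 pools below background.

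The activators of the loop were among the steadier members. Arntl, which encodes BMAL1, had a level of -0.58 in male CB-NP spleens and -0.86 in male control spleens, with -0.66 in female CB-NP spleens and -0.72 in female control spleens. The male CB-NP pool was the highest and the male control pool the lowest, and the female pools lay between them, so that both CB-NP pools were above both control pools. The CB-NP minus control difference was 0.28 in males, a 1.22-fold higher level with a 95% scanner interval of -0.12 to 0.68 on the log2 scale. In females it was 0.06, with an interval of -0.35 to 0.46. Clock, the DNA-binding partner of BMAL1, stood at -2.01 in male CB-NP and -2.15 in male control spleens, and at -1.95 in female CB-NP and -2.16 in female control spleens. Both CB-NP pools therefore lay above both control pools, by 0.14 within males and 0.21 within females. Such an order was found for 21.8% of all genes measured in every pool. The range over the 4 pools was 0.28 for Arntl and 0.21 for Clock, and 52.0% and 69.1% of all genes measured in every pool had a range at least as large.

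Per2 was the member with the lowest p-value in the fit over all 4 pools. Its product is a scaffold of the PER and CRY repressor complex. The level was -3.31 in male CB-NP and -2.87 in male control spleens, and -3.20 in female CB-NP and -2.93 in female control spleens. Every CB-NP pool lay below every control pool, as for 32.7% of all genes measured in every pool. The processed signals behind these levels were 34.4 in male CB-NP against 45.7 in male control spleens, and 34.4 in female CB-NP against 51.3 in female control spleens. Per2 was 1.35-fold lower in males, a difference of -0.43 with a scanner interval of -0.87 to 0.01, and 1.21-fold lower in females, a difference of -0.27 with an interval of -0.72 to 0.18. Of all genes, 9.19% differed at least as much as Per2 in males and 33.5% in females. With normexp, another background correction, the differences were -0.26 in males and 0.0006 in females.

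Per1, a PER protein gene that also responds quickly to glucocorticoid and to cyclic AMP signals, was the member measured in every pool on which the sexes differed most. Its level was 1.96 in male CB-NP and 2.33 in male control spleens, and 2.41 in female CB-NP and 2.11 in female control spleens. The male CB-NP pool was the lowest of the 4 and the female CB-NP pool the highest. The CB-NP minus control difference was -0.37 in males, with a scanner interval of -0.77 to 0.03, and 0.31 in females, with an interval of -0.09 to 0.71. In females the processed signal of Per1 was the same to 3 digits, 1690 in CB-NP and 1690 in control spleens. The female difference in level thus equals the log2 distance between the 75th percentiles of the 2 arrays, 317 for CB-NP and 392 for control. In males the signal was 1320 in CB-NP and 1680 in control spleens. For the other members above 0 in females, the female CB-NP signal was below the control signal before scaling. These signals were 200 against 238 for Arntl, 81.9 against 87.5 for Clock, 24.2 against 28.6 for Nr1d1 and 542 against 614 for Dbp. Their female differences therefore lie above 0 only once the arrays, which differ in brightness, are scaled. The same scaling was applied to members below 0, such as Cry2 with female signals of 1110 against 1580. Under the 6 alternatives for scaling and background Per1, Clock and Dbp stayed above 0 in females in all 6, Arntl in 5 and Nr1d1 in 2. For Per1 the female effect minus the male effect was 0.68, with a scanner interval of 0.11 to 1.24. Of all genes, 6.95% lay outside their interval in that contrast. No other member measured in every pool passed 1.5-fold there, as 7.65% of all genes did, and no test of the contrast is possible with 1 pool per group.

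Per3 and Cry2, the other repressors measured in all pools, lay lower in CB-NP spleens of both sexes by less than the scanner interval. Per3, a PER protein gene less essential to the rhythm than its relatives, had levels of -4.00 in male CB-NP and -3.80 in male control spleens, and of -4.22 in female CB-NP and -4.14 in female control spleens. Here the male pools were above the female pools whatever the treatment, and the groups by treatment overlapped. The CB-NP minus control difference was -0.19 in males and -0.09 in females, on signals of 17.0 to 24.0 that lie not far above the dimmest measured spots of 8.57 to 10.2. Cry2, a cryptochrome that represses BMAL1 and CLOCK, stood at 1.65 in male CB-NP and 1.96 in male control spleens, and at 1.81 in female CB-NP and 2.01 in female control spleens. Both CB-NP pools lay below both control pools, as for 32.7% of all genes, by -0.30 in males and -0.20 in females.

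Cry1, the other cryptochrome, was measured in only 2 pools. Its signal was well above background in male CB-NP spleens at 13.7 and not in male control spleens at 10.8. In females the order was the other way, with 5.28 in CB-NP spleens, not well above background, and 17.9 in control spleens. Only bounds can be given, namely at least 1.25-fold higher in male CB-NP than in male control spleens and at least 1.47-fold lower in female CB-NP than in female control spleens. The scanner interval of the male difference was -0.53 to 1.17 and that of the female one -2.89 to -0.02 on the log2 scale, so the male values do not differ beyond scanner error and the bounds leave that error out. The limma fit described below, in which background signals entered as they stood, gave Cry1 an adjusted p of 0.577.

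Both REV-ERB genes lay lower in male CB-NP spleens. Nr1d1 had levels of -3.73 in male CB-NP and -3.37 in male control spleens, and of -3.71 in female CB-NP and -3.78 in female control spleens. The male control pool stood above the other 3 pools, which spanned -3.78 to -3.71. The difference was -0.36 in males and 0.07 in females, with scanner errors of 0.27 and 0.30. Nr1d2 stood at -2.54 in male CB-NP and -2.28 in male control spleens, and at -2.30 in female CB-NP and -2.14 in female control spleens. Its CB-NP minus control difference was below 0 in both sexes, -0.26 in males and -0.15 in females. Both CB-NP pools lay below both control pools, as for 32.7% of all genes, with a gap of only 0.02.

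Dbp, the output factor, varied least by its brighter probe. Its level was 0.80 in male CB-NP and 0.62 in male control spleens, and 0.77 in female CB-NP and 0.65 in female control spleens. Both CB-NP pools lay above both control pools, as for 21.8% of all genes, by 0.17 in males and 0.13 in females. Dbp was the only member with a second probe, which gave 0.28 in males and 0.20 in females, so the probes had the same sign. Levels by that second probe varied more, from 0.41 in male control to 0.69 in male CB-NP spleens. For the brighter probe the range over the 4 pools was 0.17, and 78.0% of all genes had a range at least as large.

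**Figure D2:**
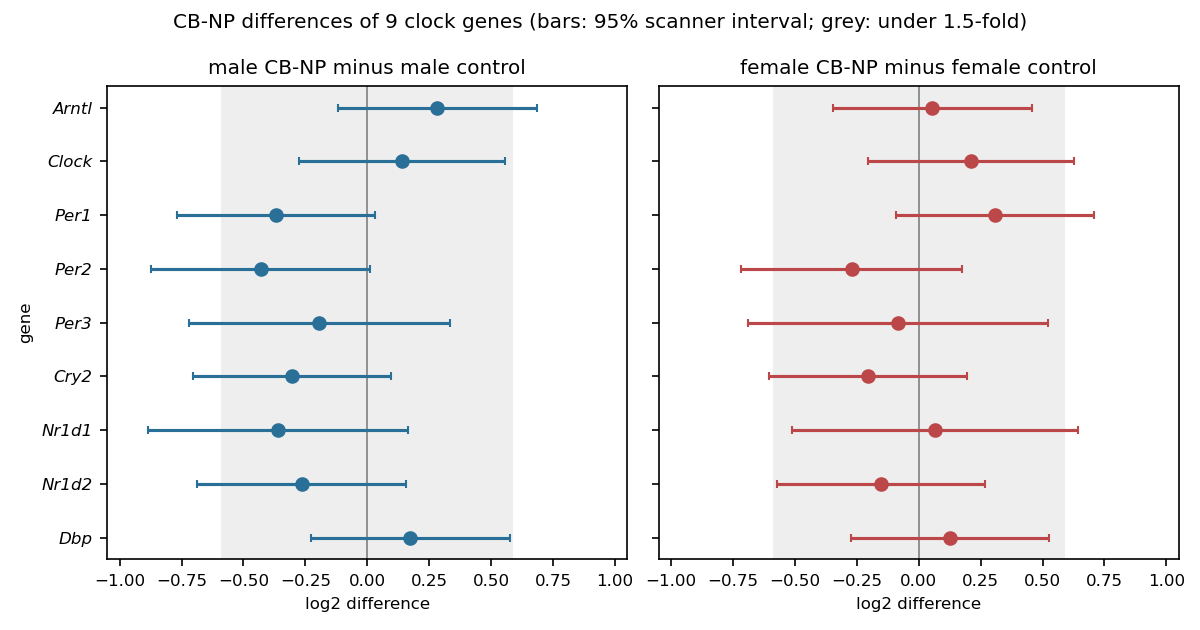
CB-NP minus control difference of each clock gene within males and within females, on the log2 scale, with bars for the 95% scanner interval and a grey band for differences under 1.5-fold. All bars of the 9 genes measured in every pool cross 0. The Per1 points lie on opposite sides of 0, at -0.37 in males and 0.31 in females.

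Across the sexes, 3 of the 9 members lay above 0 in both (Arntl, Clock and Dbp), which 27.8% of all genes did. Another 4 lay below 0 in both (Per2, Per3, Cry2 and Nr1d2), which 39.4% of all genes did. The remaining 2, Per1 and Nr1d1, had opposite signs, as had 32.8% of all genes. Taken without regard to sex, both CB-NP pools lay above both control pools for 3 members, as for 21.8% of all genes, and below both for 3 members (Per2, Cry2 and Nr1d2), as for 32.7% of all genes. With 9 members these shares are near those of the whole array. The median of the members was -0.26 in males, against -0.02 over all genes, and 0.06 in females, against -0.04 over all genes. In size regardless of sign the members' median difference was 0.28 in males, where that of all genes was 0.14, and 0.15 in females, where that of all genes was 0.19.

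**Figure D3:**
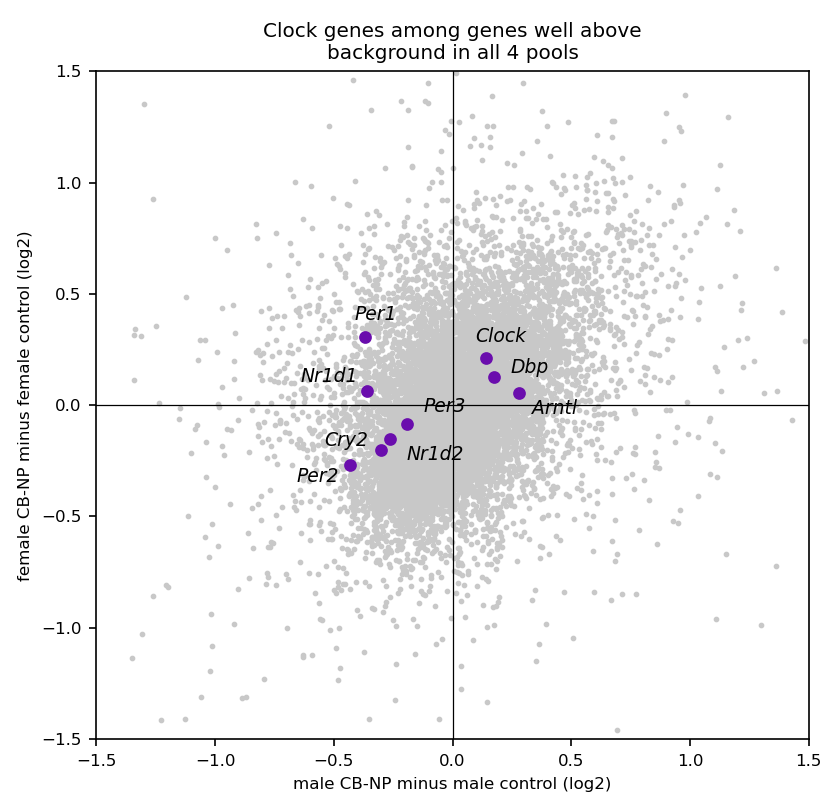
CB-NP minus control difference in females (vertical) against that in males (horizontal), both on the log2 scale, for the 13936 genes measured in every pool, with the 9 clock genes marked and 56 genes outside the axes. The clock genes lie inside the cloud of all genes, with Per1 and Nr1d1 in the quadrant below 0 in males and above 0 in females.

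A limma fit with treatment and sex as terms used the 4 pools together and took in 14503 genes. In this fit the male and female pools stood in for replicates, so its p-values rest in part on how alike the effect was in the sexes. It called none of the 10 members for CB-NP against control at a Benjamini-Hochberg adjusted p of 0.05, and called 12 genes in all, 0.0827% of those tested. At an unadjusted p under 0.05 it had 1 member, Per2, and 13.8% of all genes. For Per2 the fitted difference was -0.35 with a 95% confidence interval of -0.64 to -0.06, an unadjusted p of 0.0303 and an adjusted p of 0.347. Among 15 alternative limma settings 7 gave Per2 an unadjusted p of 0.05 or more, and the fitted difference was -0.13 with normexp (limma adjusted p 0.665) and -0.19 with normexp and quantile scaling (limma adjusted p 0.296). Cry2 had a fitted difference of -0.25 with an interval of -0.53 to 0.02, and Nr1d2 one of -0.21 with an interval of -0.49 to 0.07. Above 0 stood Clock, at 0.18 with an interval of -0.09 to 0.44, Arntl, at 0.17 with an interval of -0.15 to 0.49, and Dbp, at 0.15 with an interval of -0.11 to 0.42. Per1, whose sexes lay apart, had -0.03 with an interval of -0.63 to 0.57. These intervals leave room for differences of either sign in every member but Per2.

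The members were also compared between the sexes. In control spleens none of the 9 measured members reached 1.5-fold between females and males, against 4.06% of all genes, and the female minus male differences ran from -0.41 for Nr1d1 to 0.14 for Arntl. None of them lay outside its scanner interval, against 8.64% of all genes. Per3 was lower in females in control spleens, at -0.33, and in CB-NP spleens, at -0.22. In CB-NP spleens again no member reached 1.5-fold, against 3.19% of all genes, and Per1, higher in females by 0.46 with a scanner interval of 0.06 to 0.86, was the only member outside its interval, as were 5.88% of all genes. For the sex term limma called no member and 4 genes in all, 0.0276% of those tested. Per3, at -0.28 for female against male, had an unadjusted p of 0.0488 and an adjusted p of 0.859 in that limma fit, and was the only member under 0.05 before adjustment, as were 5.78% of all genes.

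Around the 10 members, lists of genes of the same pathway were read in the same way, and limma called no gene of any of them for CB-NP against control. Of 11 other core clock genes (paralogs and further activators and repressors) 7 were measured in both pools of each sex, and 4 lay above 0 and 3 below in males as in females, with medians of 0.09 in males and 0.02 in females. Tef, a relative of Dbp that binds the same D-boxes, differed by 0.09 in males and 0.13 in females. Timeless, known in mammals mainly for its part in DNA replication, differed by -0.15 in males and -0.22 in females. Hlf and Arntl2, named next, were chosen after their values were seen. Hlf, the other relative of Dbp, lay higher by 0.40 in male and 0.55 in female CB-NP spleens, with a limma adjusted p of 0.310.

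Arntl2, the paralog of Arntl, whose product can take the place of BMAL1 in the pair, was well above background in both CB-NP pools and in neither control pool. The signals were 17.3 in male CB-NP against 5.88 in male control spleens, and 12.1 in female CB-NP against 5.33 in female control spleens. The bounds for Arntl2 were 1.86-fold higher in male and 1.47-fold higher in female CB-NP spleens. They leave out the scanner error of the difference, which was 0.53 in males and 0.65 in females on the log2 scale. The female CB-NP signal lay near the lowest signal well above background on its array, 9.85. The limma adjusted p was 0.121, the lowest of its list. A second Arntl2 probe was not well above background in any pool. Npas2, which can stand in for CLOCK, was not well above background in any pool, nor were Rorb, Ciart and Fbxl21.

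The clock genes were also sorted by the arm of the loop. Among measured genes, Cry2, Bhlhe40, Rora and Timeless were in neither list. In males and females Cry2 differed by -0.30 and -0.20, and Bhlhe40 by -0.03 and -0.20. Rora differed by 0.15 and 0.02, and Timeless by -0.15 and -0.22. The counts and medians of the arms depend on which genes were listed, and Cry2 could also be placed in the E-box arm. Of the E-box and D-box arm 9 genes were measured (Per1, Per2, Per3, Nr1d1, Nr1d2, Dbp, Tef, Hlf and Bhlhe41), with 3 above 0 and 6 below in males and a median of -0.19. Bhlhe41 counts as below 0 in males by its brighter probe, at -0.02. Its other probe, also measured in every pool, gave 0.34 in males and 0.60 in females. Of the arm repressed by the REV-ERBs 3 genes were measured (Arntl, Clock and Nfil3), all 3 above 0 in males, with a median of 0.25. Over all genes the median was -0.02 in males. In females the E-box and D-box arm had 6 genes above 0 and 3 below with a median of 0.13, and the other arm 2 above and 1 below with a median of 0.06. The gene below in that arm was Nfil3, the opponent of DBP at D-boxes, which differed by 0.25 in males and -0.42 in females. Neither the arms nor their difference between the sexes had a test.

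Enzymes that mark PER and CRY proteins for stability or destruction showed small differences by the brightest probe of each gene. A second Btrc probe, measured in every pool, gave -0.76 in males and -0.0042 in females, against 0.0028 and 0.06 by the brighter probe. A second Csnk1e probe, also measured in every pool, gave 0.29 in males and 0.33 in females, against 0.05 and -0.13. Of 8 measured kinases and ubiquitin ligases 5 lay above 0 in males and 5 in females, with medians of 0.02 in males and 0.04 in females. Csnk1d, which encodes the delta form of casein kinase 1, the main kinase of PER proteins, differed by 0.04 in males and 0.09 in females. Gsk3b, a kinase with many clock substrates, differed by -0.05 in males and 0.12 in females. Among 9 measured cofactors 2 lay above 0 in males and 4 in females, with medians of -0.04 in males and -0.00 in females. Nono, an RNA-binding partner of PER proteins, differed by -0.09 in males and -0.16 in females, and its relative Sfpq by -0.02 in males and -0.20 in females.

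Genes outside the loop that follow the clock in many tissues lay mostly below 0, as did most genes of the array. Of 10 such outputs 3 lay above 0 and 7 below in each sex, with medians of -0.09 in males and -0.03 in females. Cdkn1a, which encodes the cell cycle inhibitor p21, differed by -0.23 in males and -0.19 in females. Tspo, a cholesterol-binding protein gene of the mitochondrial outer membrane, differed by -0.16 in males and -0.30 in females. Of 11 genes induced by glucocorticoid, a list that holds Per1, 3 lay above 0 in males and 5 in females, with medians of -0.12 in males and -0.01 in females. The metallothionein genes Mt1 and Mt2, which bind metal ions, differed by -0.25 and -0.19 in males and by -0.07 and -0.10 in females. Of 10 immediate early genes 8 lay above 0 in males and 4 in females, with medians of 0.13 in males and -0.02 in females, and Nr4a1, a nuclear receptor gene switched on within minutes of a stimulus, differed by 0.26 in males and 0.12 in females.

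**Figure D4:**
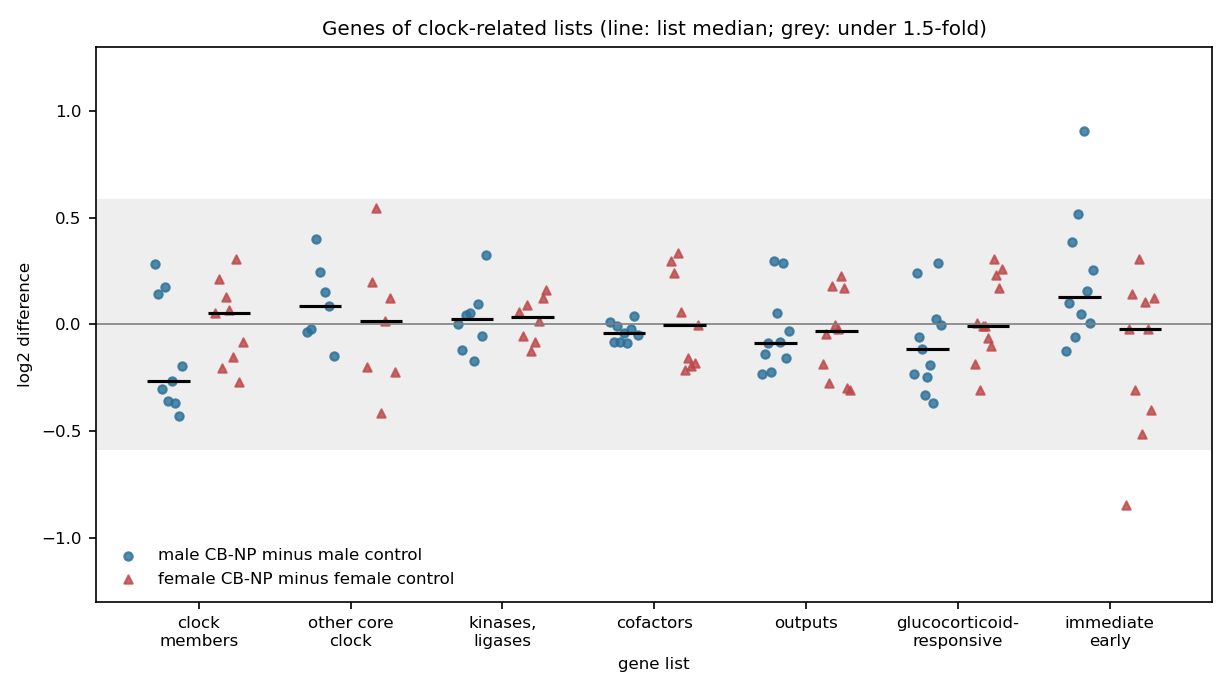
CB-NP minus control difference of every measured gene of the clock gene lists, on the log2 scale, with blue circles for males, red triangles for females, a line at each list's median and a grey band for differences under 1.5-fold. List medians in males run from -0.26 for the clock genes to 0.13 for the immediate early genes, and outside the band lie Fosb in males, at 0.91, and Atf3 in females, at -0.85.

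Markers of some cell types differed between CB-NP and control pools, and their part in the clock gene values was not tested. All values that follow are summed levels in units of the 75th percentile of the array. For B cells all 6 markers were measured in every pool and all lay higher in CB-NP pools of both sexes, with sums of 93.7 in male CB-NP against 55.1 in male control spleens and 87.3 in female CB-NP against 52.4 in female control spleens. Eosinophil markers, 6 genes, summed to 8.89 in male CB-NP against 31.8 in male control spleens, and to 17.2 in female CB-NP against 62.3 in female control spleens. Markers of the acinar cells of the pancreas, which lies against the spleen, summed to 1.63 in male CB-NP against 14.9 in male control spleens. In females they summed to 1.62 in CB-NP against 11.1 in control spleens. Among them Cela1 had log2 differences of 0.21 in males and -0.59 in females, and Pnlip was not well above background in any pool. The list medians of the CB-NP minus control differences in males and females were 0.70 and 0.75 for B cells, -2.47 and -2.23 for eosinophils and -4.11 and -3.78 for acinar cells. They were unlike in the sexes for T cells, at 0.06 in males and 0.48 in females, and for neutrophils, at 0.15 and -0.41. Islet markers summed to 0.17 in male CB-NP against 2.92 in male control spleens, and to 0.63 in female CB-NP against 0.41 in female control spleens. Of these 5 islet genes 1 was well above background in male CB-NP, 4 in male control and 2 in each female pool. The islet sums thus hold background signals. For T cells the sums were 22.2 in male CB-NP, 22.0 in male control, 29.1 in female CB-NP and 22.1 in female control spleens. The 4 sums lay between 712 and 801 for erythroid, between 652 and 849 for neutrophil, between 102 and 136 for megakaryocyte and between 96.7 and 103 for spleen red pulp and stroma markers. In RNA from whole spleens, fewer cells of a type and less RNA per cell cannot be told apart.

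Over the 4 pools, Per1, Per2 and Per3 had the widest ranges of the members, 0.46, 0.43 and 0.42, against a median of 0.29 over all genes measured in every pool. A range at least as large was found in 24.1% of genes for Per1, in 27.0% for Per2 and in 28.5% for Per3. The genes nearest to them in pattern were found by the Euclidean distance between levels over the 4 pools, each gene minus its own mean. Nearest to Per1 were Rasal2 at 0.034, Tbx3 at 0.036, Gm16894 at 0.040, Cacna1d at 0.055 and Ftx at 0.058. Nearest to Per2 were Dcaf10 at 0.027, Gstt1 at 0.030, Smyd1 at 0.037, Sugp2 at 0.041 and Cbwd1 at 0.041. Nearest to Per3 were Ccdc77 at 0.022, Zdhhc2 at 0.026, Rock1 at 0.029, Spred1 at 0.033 and Secisbp2 at 0.042. No clock gene was among these, and the closest member was Cry2 for Per2, at rank 217 of 13935 genes with a distance of 0.133. With 4 values per gene such nearness is a description of these pools.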

How the data were processed

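Total spleen RNA from 4 pools was hybridised to 4 one-colour Agilent arrays. The deposited files are scanner output of Agilent Feature Extraction 10.10.1.1, per the file headers, with an intensity for each spot, its error and flags for background, saturation and outliers. The processed signal is an intensity that the software had already background-subtracted, per the file headers. The authors' deposited value table, used only to take their scaling for an alternative, holds the same processed intensity times 1 factor per array of 2.64 to 3.49, found by setting its columns against the scanner values.

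Control spots and outlier spots were left out, spots of a probe were averaged, and each array's 75th percentile of log2 signal was subtracted. Probes were named through RefSeq accessions, which matched 26762 of 55681 probes. The brightest matched probe stands for a gene. A probe of several spots is well above background where at least 0.5 of its spots are. A bound sets the brighter pool against the higher of the dim probe's own signal and the lowest signal well above background on its array. Folds of 1.5 and 2 were used as sizes. limma 3.58.1 (R 4.3.3) was fitted to the genes that 2 or more arrays measured above background, with treatment and sex as terms. That leaves 1 residual degree of freedom, which is the difference of the CB-NP effect between the sexes. The p-values weigh a mean effect against that difference and a variance that limma takes from all genes. They do not measure the spread between like pools. Differences within a sex and between list medians have no test. The alternatives changed the background correction, scaling, probe choice, dim-probe filter and limma's terms and prior. They also left out each pool in turn, with treatment as the only term.

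The members, the gene lists and the tests were chosen with earlier results of these data known. From the other clock lists the text names genes called by limma, genes past 1.5-fold the same way in both sexes or past 2-fold in 1 sex, of which there were none among the genes well above background, and otherwise the 2 of highest mean signal per list. Arntl2, Hlf, Nfil3, Fos, Fosb, Junb, Egr1 and Atf3 were named after their values were seen. Genes sorted by arm of the loop, or left out of both arms, are named outside these rules. A further gene is not reported here. The number of arrays limits the precision, and the scanner error leaves out animal, litter and labelling.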

Additional observations from a re-analysis of the deposited data

Results flagged for a closer look

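Counted here are the members and the clock-list genes picked by the naming rules above. The genes named after their values were seen are counted too, and all had to be measured in every pool. Of these, 7 had CB-NP minus control differences of opposite sign in the 1 female and the 1 male pool pair. For none of them was the difference between the sexes tested. Bhlhe41 and the genes listed as nearest to Per1 also had opposite signs and were not counted. For Per1 the female minus male effect was 0.68 (0.31 in females, -0.37 in males). For Nr1d1 it was 0.43 (0.07 in females, -0.36 in males), with a scanner error of 0.40. Nfil3, the opponent of DBP at D-boxes, had -0.66 (-0.42 in females, 0.25 in males). Gsk3b had 0.18 (0.12 in females, -0.05 in males). Among the immediate early genes Fos had -0.56 (-0.51 in females, 0.05 in males), Junb -0.41 (-0.40 in females, 0.0074 in males) and Btg2, whose product restrains cell division, -0.12 (-0.02 in females, 0.10 in males). The bounds of Cry1, which was below background in 2 pools, also had opposite directions. Of all genes 32.8% had opposite signs. Nfil3, Fos and Junb were chosen after their values were seen, so the count of 7 cannot be set against that share. Under the 6 alternatives for scaling and background the female value of Nr1d1 kept its sign in 2 and that of Per1 in 6.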

How the results depend on the processing

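No member was called by limma under any setting, with the lowest adjusted p among the members between 0.145 with an intensity trend and 0.705 with no filter on dim probes. The alternatives for the dim-probe filter and probe choice cannot move a gene measured by 1 probe in every pool. Of the 18 within-sex CB-NP minus control differences of the 9 measured members, 14 kept their sign under the 6 alternatives for scaling and background, the others being Arntl, Per2, Per3 and Nr1d1 in females. Without a filter on dim probes 1 member, Cry1, passed 1.5-fold in female CB-NP against female control spleens (-1.46) and in female against male CB-NP spleens (-1.27). Limma's treatment value turned to 0.0117 (normexp and quantile), 0.0193 (quantile), 0.0213 (cyclic loess) and 0.0456 (the authors' scaling) for Per1, and with normexp alone to 0.0346 for Per3, 0.0352 for Cry1 and 0.0032 for Nr1d1. The fits that left out a pool also dropped the sex term, so that sex is mixed into their treatment values. They gave -0.26 to 0.20 for Per1, -0.31 to 0.0270 for Per3, -1.20 to 0.0707 for Cry1 and -0.35 to 0.0554 for Nr1d1. For Nr1d2 they gave -0.33 to -0.09 and for Arntl 0.10 to 0.24. The causes were not tested. Median centring moved the median of all genes in females to -0.16, against -0.04, and put Arntl at -0.06 there. Over all genes limma called 12, against 612 with normexp, 45 with normexp and quantile, 344 with median centring, 380 with the trend, 3 with quantile or cyclic loess, 2 with the authors' scaling and 0 without a dim-probe filter or with the filter on all 4 arrays. With normexp 186 genes passed 1.5-fold in males and 359 in females, against 648 and 969. Without the female control pool limma called 7 genes, and without each other pool 0. The slide as a block was not run, since all arrays share 1 slide. No paired analysis was possible because the labels give no replicate numbers beyond 1 pool per group, though the sex term of the limma fit matches the pools by sex, and without that term limma called 0 members and 9 genes. Signals near background, as for Cry1, Per3 and Nr1d1, limit what these arrays show.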

Other observations

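Several immediate early genes, which cells switch on within minutes of a stimulus, stood apart in 1 pool, and they were picked after their values were seen. The level of Fos was -3.28 in male CB-NP and -3.33 in male control spleens, and -3.04 in female CB-NP and -2.53 in female control spleens. Atf3, a stress-induced repressor gene, had -3.00 in male CB-NP and -2.88 in male control spleens, and -3.24 in female CB-NP and -2.40 in female control spleens. Junb, a partner of FOS, had -2.61 in male CB-NP and -2.62 in male control spleens, and -2.64 in female CB-NP and -2.24 in female control spleens. All 3 were highest in the female control pool. Fosb, another partner of the JUN proteins, was highest in the male CB-NP pool, at -2.37 against -3.28 in male control spleens, with -2.76 in female CB-NP and -2.87 in female control spleens. Egr1, a zinc finger gene of the same class, differed by 0.52 in males and 0.31 in females. None of these genes was called by limma for CB-NP against control.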
